A study of Mus musculus with 4 samples.

Results

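Leydig cell hormones and endocrine receptors were examined in sorted interstitial cells of the mouse testis, as 10 of the 22802 rows of a table of gene levels. The rows were chosen by symbol: the peptide hormone or precursor genes Insl3, Ren1 and Agt, the receptor genes Lhcgr, Prlr, Ghr, Crhr1, Mc2r and Rxfp2, and the calmodulin regulator gene Pcp4. Insl3 and Ren1 lie in rows merged with a further gene, Jak3 and Ren2. Cells came from testes of C57BL/6J mice at postnatal day 10 that carried both mFLE-Cre and CAG-CAT-EGFP, a reporter that makes EGFP once Cre has recombined it. The labels do not spell out the element that drives Cre. Sorting on EGFP and laminin staining gave 2 laminin-positive and 2 laminin-negative samples. All carried the same alleles. Every sample is labelled as positive for EGFP, yet by the design text EGFP was weak in the cells without laminin, so a difference in EGFP may go with the difference in laminin. Whether the samples of a population are separate animals is not stated. The p-values therefore reflect the spread of these 4 samples alone, which may be technical.

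Leydig cells are the endocrine cells of the testis. They make androgens under the control of luteinizing hormone (LH), whose receptor LHCGR raises cyclic AMP through a stimulatory G protein, and they secrete the peptide INSL3, which acts through RXFP2 and drives testis descent. Receptors for prolactin and growth hormone signal through JAK2 and STAT5 instead, while the receptors for corticotropin-releasing hormone (CRHR1) and for ACTH (MC2R) use cyclic AMP as LHCGR does. Renin cuts angiotensinogen, the product of Agt, as the first step in making angiotensin II.

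The rows of the hormone genes Insl3 and Ren1, and the LH and prolactin receptor genes, were more than 20 times lower in laminin-positive than in laminin-negative cells. Angiotensinogen was 5.38-fold and the growth hormone receptor 1.83-fold lower. Mc2r, Rxfp2 and Pcp4 stayed under 1 FPKM in every library. FPKM counts fragments per transcript length in kilobases and per mapped fragments of the library, so levels can be set beside each other between genes. In these bulk samples, fewer cells that use a gene and less of its RNA per cell cannot be told apart.

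**Figure D1:**
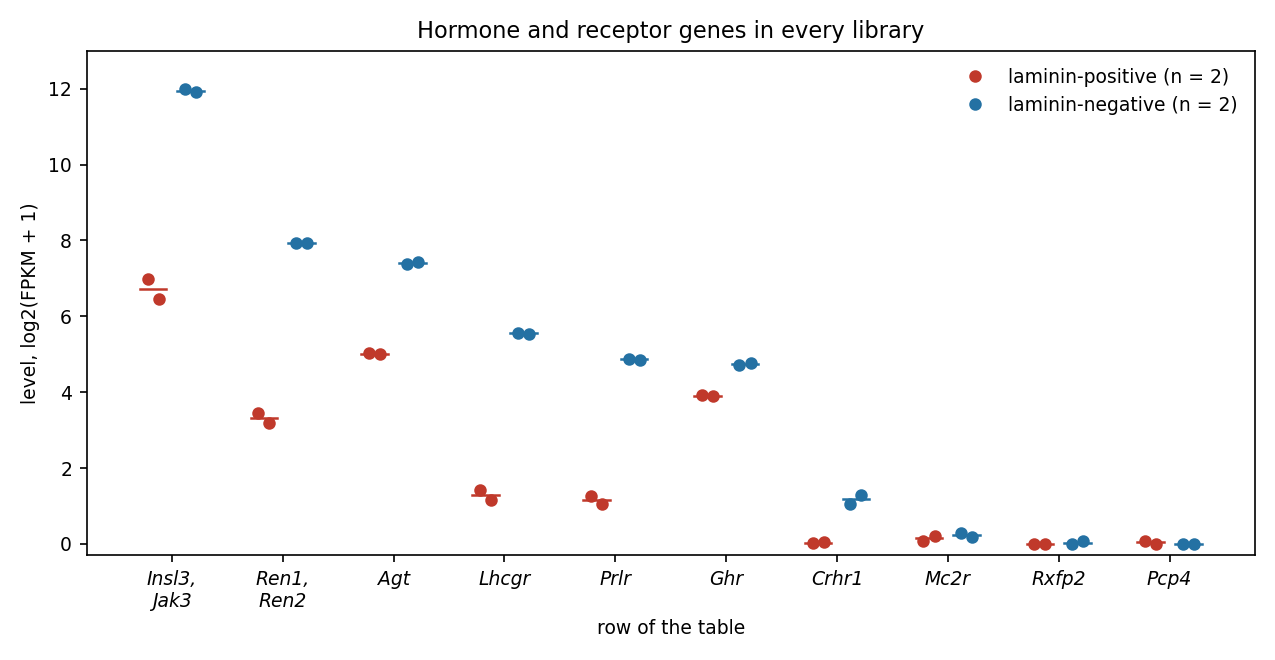
Level of the 10 rows in every library, as log2(FPKM + 1); points are libraries, short lines are means of the 2 libraries of a population, red is laminin-positive and blue laminin-negative. The populations are apart for the 7 rows from Insl3,Jak3 to Crhr1, by least for Ghr, and Mc2r, Rxfp2 and Pcp4 lie near 0 in both.

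Libraries of both populations were alike in breadth, with 11945 to 12011 rows at 1 FPKM or more in laminin-positive and 11794 to 11843 in laminin-negative cells. A row was tested where at least 2 libraries reached 1 FPKM, which left 12348, and limma was applied to log2(FPKM + 1) with Benjamini-Hochberg adjustment over all of them. At an adjusted p under 0.05, 3288 rows (26.6%) rose and 3245 (26.3%) fell in laminin-positive cells. When FPKM sums counted without the ribosomal RNA precursor row Rn45s were made equal, hereafter equal FPKM sums, the split moved to 4273 and 2371. Then 64.3% of calls were higher, against 50.3% as deposited, and the median difference of all rows moved to 0.12 on the log2 scale. Scaling by a trimmed mean of log ratios moved the split the other way, to 3004 and 3529, with 46.0% of calls higher. Under quantile normalization 48.3% of calls were higher. The label of the cells was set against 5 Leydig cell markers (Cyp11a1, Cyp17a1, Hsd3b1, Star and Nr5a1), which summed to 80.2 and 73.6 FPKM in laminin-positive and 744 and 746 FPKM in laminin-negative libraries. Markers of smooth muscle and peritubular myoid cells summed to 5560 and 5612 FPKM in laminin-positive and 205 and 190 FPKM in laminin-negative libraries, with all 8 listed genes called higher. Those of macrophages (7 of 8 higher) summed to 41.2 and 34.4 FPKM against 5.17 and 4.05 FPKM, and those of Sertoli cells (5 of 8 higher) to 171 and 160 FPKM against 68.5 and 62.9 FPKM. Germ cell markers (7 of 8 higher and 1 lower) summed to 33.6 and 34.5 FPKM in laminin-positive and 49.6 and 48.8 FPKM in laminin-negative libraries, and endothelial markers (1 of 8 higher and 2 lower) to 79.4 and 72.3 FPKM against 235 and 237 FPKM, of which Kit and Cdh5 held most in laminin-negative cells. Calls on markers that reached 1 FPKM in 1 population only had a difference built in by the filter. These were 6 of the 7 macrophage calls, 2 of the 5 Sertoli cell calls, 2 of the 7 germ cell calls of higher, and 1 higher and 1 lower endothelial call. None of these markers was at 0 in every library, and red cell markers summed to under 2 FPKM in each. Their part in the results was not tested.

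All 7 members that passed the filter fell in laminin-positive cells, where 26.3% of all tested rows fell. Both laminin-positive libraries lay below both laminin-negative ones for each of the 7, as for 37.8% of all tested rows. A log2 difference of -3 or less was reached by 4 of the 7, Insl3,Jak3, Ren1,Ren2, Lhcgr and Prlr, and by 0.567% of all tested rows. The median log2 difference was -3.71 over the 7 and 0.0092 over all tested rows. Crhr1 passed the filter only through its laminin-negative libraries, so a difference there was built into the filter, while the other 6 were above 1 FPKM in all 4 libraries.

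**Figure D2:**
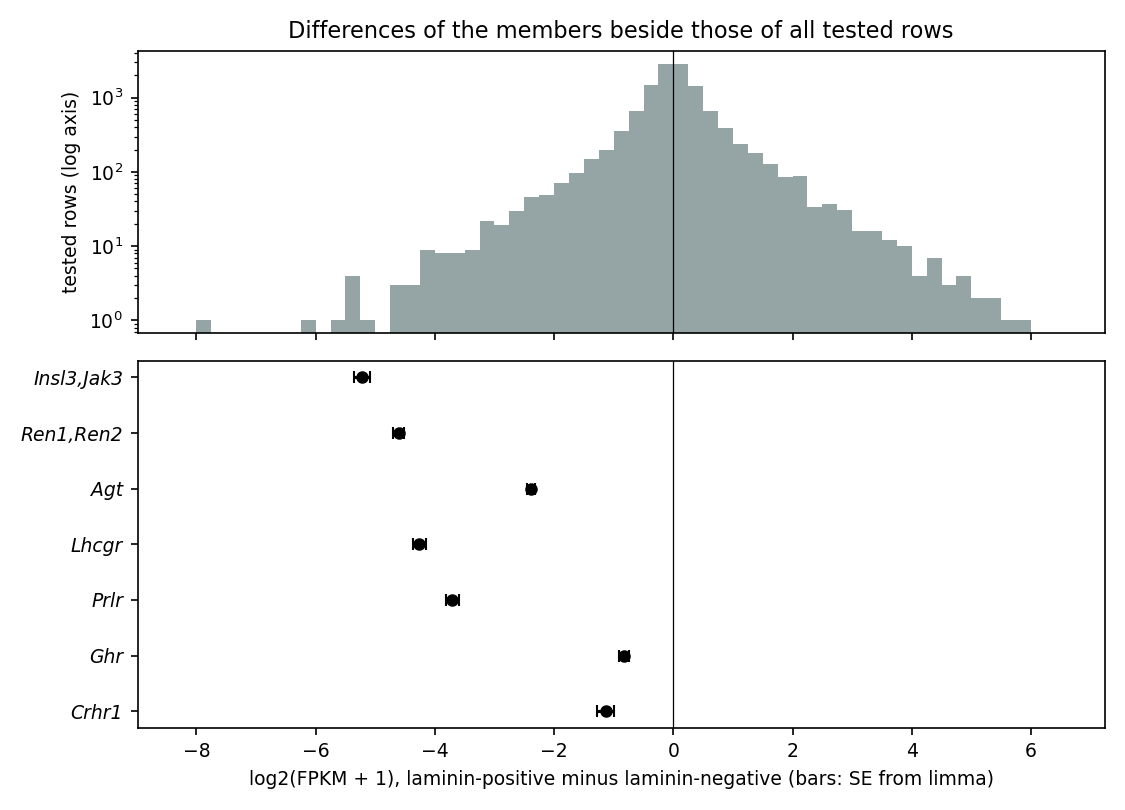
Upper panel: number of the 12348 tested rows by log2 difference, laminin-positive minus laminin-negative, on a log axis; lower panel: the 7 tested members with the SE from limma. The members span from -5.22 for Insl3,Jak3 to -0.83 for Ghr, all left of 0.

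Among the hormone genes, Insl3 encodes insulin-like 3. Its row, merged with the cytokine receptor kinase gene Jak3, had 126 and 87.0 FPKM in the laminin-positive libraries and 4080 and 3822 FPKM in the laminin-negative ones. It was the row of rank 4 and 6 among all 22802 in the laminin-negative libraries, and of rank 562 and 845 in the laminin-positive ones. The 37.0-fold lower mean in laminin-positive cells corresponded to -5.22 on the log2 scale (SE 0.14, adjusted p = 5.19e-10 in limma). The means were 107 ± 27.9 FPKM in laminin-positive and 3951 ± 182 FPKM in laminin-negative cells (SD, n = 2 each), so the gap was far wider than the spread within either population.

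How far that row speaks for Insl3 alone is set by the locus. In GENCODE M21 on GRCm38, Insl3 (chromosome 8, 71689214 to 71690575, plus strand) lies wholly inside Jak3 (chromosome 8, 71676296 to 71690575, plus strand). Insl3 has 2 exons with 623 bases, of which 404 (64.8%) are also exon in Jak3. Since both genes are on the same strand, strand-specific reads do not separate them there, and no value for either gene alone is given here.

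**Figure D3:**
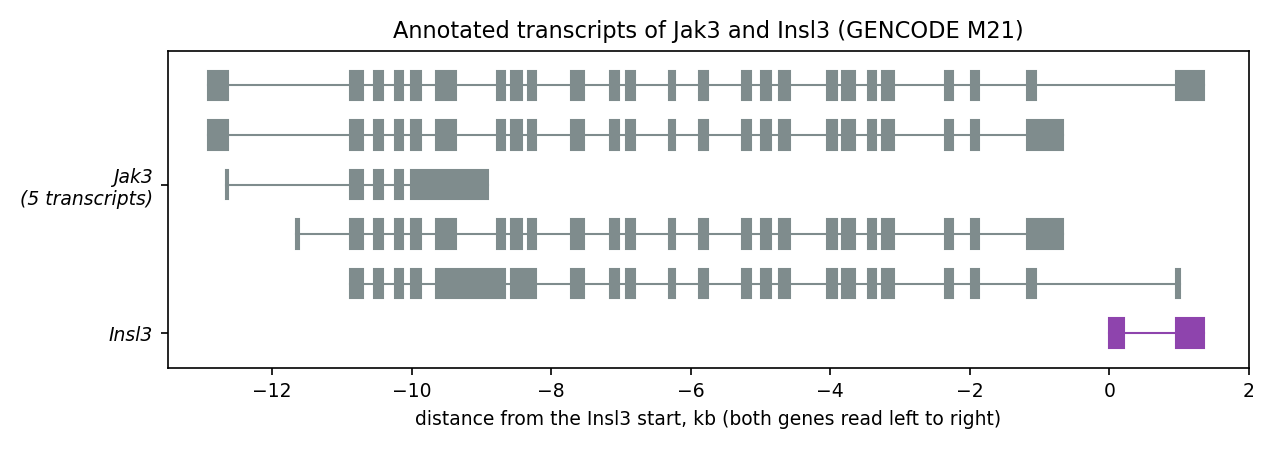
Exons (boxes) of the 5 annotated Jak3 transcripts (grey) and of Insl3 (purple), by distance from the Insl3 start in kb. The second Insl3 exon coincides with the last exon of the longest Jak3 transcript, while the first Insl3 exon lies in its last intron.

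Renin, the enzyme that cuts angiotensinogen, was lower in laminin-positive cells too. The row Ren1,Ren2 (chromosome 1, 133350566 to 133360323) had 10.02 and 8.18 FPKM in laminin-positive and 244 and 245 FPKM in laminin-negative libraries. That is 26.8-fold lower, or -4.61 on the log2 scale (SE 0.09, adjusted p = 7.48e-11 in limma). Ren2 arose as a tandem copy of Ren1, and C57BL/6 mice are known to carry Ren1 only. GENCODE M21 places Ren1 alone at this locus (133350510 to 133360325, plus strand).

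Angiotensinogen, the substrate of renin, was more abundant than renin in laminin-positive cells. Agt (chromosome 8, 124556534 to 124569706, minus strand) had 31.6 and 31.0 FPKM in laminin-positive and 166 and 170 FPKM in laminin-negative libraries (log2 difference -2.39, SE 0.07, limma adjusted p = 7.73e-10). Agt thus stood above the renin row in both laminin-positive libraries and below it in both laminin-negative ones.

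The 250 bases before the RefSeq start of these 3 hormone genes and of Lhcgr are shown (GRCm38.p6), to describe how their start regions differ. Other members fell too, among them Prlr, which fell further than Agt, and their windows are not printed. They read 5′ to 3′ on the gene's strand, and capitals mark matches on either strand to CAAGGNC (the core bound by the steroidogenic factor NR5A1), AGGTCA (the nuclear receptor half-site) or TATAA (the TATA box core). These motifs were chosen after the windows had been read. The windows are chr8:71689002-71689251 (plus strand) for Insl3, chr1:133350424-133350673 (plus strand) for Ren1, chr8:124569707-124569956 (minus strand) for Agt and chr17:88792015-88792264 (minus strand) for Lhcgr.
Insl3: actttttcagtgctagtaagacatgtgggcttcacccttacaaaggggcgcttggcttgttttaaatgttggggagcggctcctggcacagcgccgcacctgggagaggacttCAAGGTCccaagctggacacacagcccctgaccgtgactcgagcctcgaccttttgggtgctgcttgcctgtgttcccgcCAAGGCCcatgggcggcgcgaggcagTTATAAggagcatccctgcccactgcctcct
Ren1: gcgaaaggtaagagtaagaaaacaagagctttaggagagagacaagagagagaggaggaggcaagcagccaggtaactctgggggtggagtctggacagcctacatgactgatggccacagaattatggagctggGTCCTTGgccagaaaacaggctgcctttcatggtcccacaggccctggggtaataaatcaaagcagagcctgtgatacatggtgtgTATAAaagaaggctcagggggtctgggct
Agt: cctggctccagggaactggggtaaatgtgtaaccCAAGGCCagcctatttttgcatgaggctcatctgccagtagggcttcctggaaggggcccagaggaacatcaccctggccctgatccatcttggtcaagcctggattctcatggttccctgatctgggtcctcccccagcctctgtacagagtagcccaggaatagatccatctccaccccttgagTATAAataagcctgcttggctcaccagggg
Lhcgr: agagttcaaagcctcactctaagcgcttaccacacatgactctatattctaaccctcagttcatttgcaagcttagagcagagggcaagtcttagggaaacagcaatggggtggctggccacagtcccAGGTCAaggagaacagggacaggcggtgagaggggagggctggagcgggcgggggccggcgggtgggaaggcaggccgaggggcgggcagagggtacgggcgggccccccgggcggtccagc

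Insl3 held CAAGGNC at positions -137 to -131 and -57 to -51 from its start, on the gene's strand. Ren1 held it at -115 to -109 on the other strand and Agt at -216 to -210. A TATAA was found at -30 to -26 in Insl3 and in Agt and at -29 to -25 in Ren1. In Insl3 the letters also read TATAA on the other strand, 1 base further from the start, so these matches overlap. All positions count from the RefSeq start, which for Insl3 and Ren1 lies downstream of the GENCODE M21 start given above. The last part of those windows is thus inside the GENCODE gene, and it holds the Insl3 TATAA and the Ren1 matches. Lhcgr held neither of these letter strings in its window but AGGTCA at -122 to -117. Over all 32851 RefSeq promoter windows of this length, 15.0% held CAAGGNC, 14.0% AGGTCA and 22.8% TATAA, and matches to CAAGGNC and AGGTCA can overlap by the letters AGGTC. A letter match is a description and not a binding site. Of the 12 genes that the member rows name, 10 had a window. Mc2r and Ren2 had none. Among the windows not printed, those of Prlr, Crhr1 and Rxfp2 held no match to any of these motifs. Jak3 held CAAGGNC, a start of Ghr held CAAGGNC and TATAA, and Pcp4 held AGGTCA.

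Lhcgr, the receptor through which LH drives androgen synthesis, had the largest log2 difference among the tested receptor genes of the members. It had 1.66 and 1.24 FPKM in laminin-positive and 46.3 and 45.2 FPKM in laminin-negative libraries (chromosome 17, 88716481 to 88791990, minus strand). Its 31.5-fold lower mean corresponded to -4.26 on the log2 scale (SE 0.11, adjusted p = 2.84e-10 in limma).

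The prolactin receptor gene Prlr (chromosome 15, 10177238 to 10349180, plus strand) followed at 1.41 and 1.06 FPKM in laminin-positive and 28.6 and 27.8 FPKM in laminin-negative libraries. This was 22.8-fold lower (log2 difference -3.71, SE 0.11, limma adjusted p = 7.73e-10). Its exons share 203 bases with Gm21973 on the same strand, out of 15339.

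Ghr, the growth hormone receptor gene and a close relative of Prlr in the class I cytokine receptor family, behaved differently in size. It had 14.2 and 13.9 FPKM in laminin-positive and 25.2 and 26.1 FPKM in laminin-negative libraries (chromosome 15, 3317760 to 3583492, minus strand). The groups did not overlap, and the 1.83-fold lower mean corresponded to -0.83 on the log2 scale (SE 0.08, adjusted p = 8.49e-06 in limma). Prlr and Ghr were thus close to each other in laminin-negative cells, at 28.2 ± 0.602 and 25.7 ± 0.666 FPKM (SD, n = 2 each), and far apart in laminin-positive cells, at 1.24 ± 0.247 and 14.04 ± 0.184 FPKM.

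Crhr1, the receptor for corticotropin-releasing hormone (chromosome 11, 104132855 to 104175523, plus strand), was low throughout. It had 0.0180 and 0.0343 FPKM in laminin-positive and 1.09 and 1.44 FPKM in laminin-negative libraries (log2 difference -1.14, SE 0.14). Crhr1 passed the filter only through the laminin-negative libraries, which built a difference in, so no p is given. The laminin-positive values are close to 0, so no fold is given. Mc2r, the ACTH receptor gene on chromosome 18, had 0.0631 and 0.166 FPKM in laminin-positive and 0.218 and 0.134 FPKM in laminin-negative libraries. These ranges overlapped, and the row was below the filter.

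Rxfp2, the INSL3 receptor gene (chromosome 5, 150018675 to 150082184, plus strand), was listed at 0 in both laminin-positive libraries and in one laminin-negative library, and at 0.0511 FPKM in the other. Pcp4, whose product regulates calmodulin (chromosome 16, 96467606 to 96525793, plus strand), was at 0.0611 and 0 FPKM in laminin-positive libraries and at 0 in both laminin-negative ones. Its annotated exons share 243 of 1026 bases with Igsf5 on the same strand. When every row with a value above 0 was tested, Mc2r, Rxfp2 and Pcp4 had limma adjusted p = 0.426, 0.559 and 0.509. No difference was detected for these rows, which does not show that they are equal, and the number of fragments behind the values is unknown.

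In the order of levels, laminin-positive cells held Insl3,Jak3 first, then Agt, Ghr and Ren1,Ren2. Lhcgr and Prlr came next there with overlapping ranges. Laminin-negative cells held Insl3,Jak3, Ren1,Ren2, Agt, Lhcgr, Prlr, Ghr and Crhr1 in falling order, with no overlap between neighbours. The rows most like Insl3,Jak3 over the 4 libraries, by Euclidean distance between centred log2(FPKM + 1) profiles, were the microfibril gene Mfap5 (distance 0.155), the aldehyde dehydrogenase gene Aldh3a1 (0.229), S100b (0.293), the androgen synthesis gene Cyp17a1 (0.556) and dermatopontin, Dpt (0.576). Those most like Lhcgr were the IGF-binding protein gene Igfbp2 (0.0792), the metalloprotease gene Adam12 (0.201) and the Fc receptor gene Fcgr2b (0.231). Ren1,Ren2 was at 0.350 and Prlr at 0.548 from Lhcgr, against 3.44 for Ghr. With 2 samples a group, such a distance mostly compares the size of the difference.

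The members were also set beside Cyp11a1, the enzyme gene that begins steroid synthesis, in the same library. Cyp11a1 had 11.3 and 9.49 FPKM in laminin-positive and 133 and 134 FPKM in laminin-negative libraries. Its annotated exons share 145 of 4804 bases with Gm17322 on the same strand. The ratio of Insl3,Jak3 to Cyp11a1 was 11.2 and 9.16 in laminin-positive and 30.6 and 28.6 in laminin-negative libraries. For Ren1,Ren2 the ratio was 0.888 and 0.861 in laminin-positive and 1.83 in both laminin-negative libraries, and for Lhcgr 0.147 and 0.131 against 0.348 and 0.338. Prlr had ratios of 0.125 and 0.112 in laminin-positive and 0.215 and 0.208 in laminin-negative libraries. These 4 rows therefore fell further than Cyp11a1. Ghr and Agt went the other way against Cyp11a1, with a Ghr ratio of 1.25 and 1.47 in laminin-positive against 0.189 and 0.195 in laminin-negative libraries. The Agt ratio was 2.80 and 3.26 in laminin-positive against 1.25 and 1.27 in laminin-negative libraries. For Agt the direction turned with the gene it was divided by. Against Nr5a1, the gene of the steroidogenic factor, the Agt ratio was 0.843 and 0.853 in laminin-positive and 1.53 and 1.77 in laminin-negative libraries. The other 5 rows kept their direction against Nr5a1, with Ghr at 0.378 and 0.383 in laminin-positive and 0.233 and 0.272 in laminin-negative libraries. The mean of Cyp17a1, however, was 29.4-fold lower, a larger fall than that of Ren1,Ren2 (26.8-fold) or Prlr (22.8-fold). It was a smaller fall than that of Insl3,Jak3 (37.0-fold) or Lhcgr (31.5-fold). Hence for Ren1,Ren2 and Prlr too the direction of a ratio depends on the gene used as divisor. With 2 libraries a population the smallest p of an exact permutation test is 0.333, and these ratios are given without one.

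**Figure D4:**
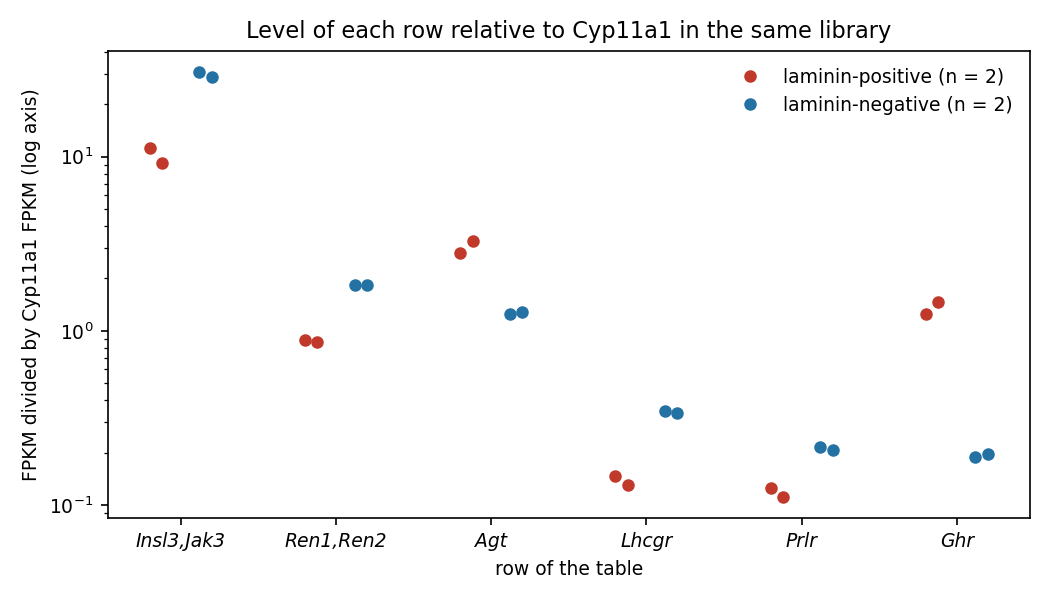
FPKM of 6 rows divided by the FPKM of Cyp11a1 in the same library, on a log axis; each point is a library, red laminin-positive and blue laminin-negative. Laminin-positive points lie below for Insl3,Jak3, Ren1,Ren2, Lhcgr and Prlr and above for Agt and Ghr; divided by Nr5a1 instead (not plotted), Agt lies below, at 0.843 and 0.853 in laminin-positive and 1.53 and 1.77 in laminin-negative libraries.

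Partners of the members were taken from 10 pathway lists. In the renin-angiotensin list, 6 of 9 tested genes rose and 1 fell in laminin-positive cells (median log2 difference 0.66), beside 26.6% and 26.3% of all tested rows. The gene that fell was Agtr2, one of the angiotensin II receptor genes. It had 0.169 and 0.233 FPKM in laminin-positive and 15.8 and 18.9 FPKM in laminin-negative libraries (log2 difference -3.93, SE 0.12). Agtr2 passed the filter only through the laminin-negative libraries, which built a difference in, so no p is given. The converting enzyme gene Ace, whose enzyme forms angiotensin II, had 241 FPKM in both laminin-positive libraries, against 69.8 and 69.6 FPKM in the laminin-negative ones (3.46-fold, log2 difference 1.78, SE 0.07, limma adjusted p = 5.63e-09). Hence the genes of renin and of its substrate were lower, and that of the converting enzyme was higher, in laminin-positive cells.

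Further along the angiotensin pathway, the renin receptor gene Atp6ap2 averaged 57.5 ± 3.68 FPKM in laminin-positive and 31.2 ± 0.343 FPKM in laminin-negative cells. The peptidase genes Enpep, Mme and Anpep rose as well, and lost their calls when no variance was shared between genes. Anpep lost it also without laminin-positive replicate 1, without laminin-negative replicate 1, with no filter and under quantile normalization. Agtr1a, the other main angiotensin II receptor gene, averaged 3.73 ± 0.289 in laminin-positive and 2.91 ± 0.192 FPKM in laminin-negative cells and did not pass (limma adjusted p = 0.0653), although it did at equal FPKM sums (0.0241) and without an intensity trend (0.0393), and its adjusted p ran between 0.0241 and 0.373 across all settings tried. Mas1 and Agtr1b were below the filter.

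Partners of LHCGR and MC2R on the cyclic AMP side went both ways, with 7 of 19 higher and 6 lower (median log2 difference 0.11). Over all tested rows these shares were 26.6% and 26.3%. Gnas, the gene of the stimulatory G protein subunit, had 856 and 854 FPKM in laminin-positive and 1956 and 2129 FPKM in laminin-negative libraries (log2 difference -1.25, SE 0.08, limma adjusted p = 4.65e-07). Its annotated exons overlap Nespas and Gm20721 on the opposite strand, and whether strand was used in counting is not known here. Exons of Ace, Cish, Ednra, Jak1, Npr1, Npr3, Rxfp2, Stat5a and Tyk2 likewise overlap genes on the opposite strand, which makes their values uncertain to that extent. Prkar2b, a regulatory subunit of protein kinase A, and the phosphodiesterase gene Pde8a were 4.39-fold and 7.36-fold lower. The phosphodiesterase gene Pde4b was higher, at 19.5 and 19.4 FPKM in laminin-positive and 0.993 and 0.984 FPKM in laminin-negative libraries. It passed the filter only through the laminin-positive libraries. The adenylyl cyclase gene Adcy7 was 4.73-fold higher, at 359 ± 4.67 in laminin-positive and 76.0 ± 4.53 FPKM in laminin-negative cells. Nr4a1, a nuclear receptor gene that LH induces in Leydig cells, averaged 906 ± 54.2 in laminin-positive and 640 ± 10.5 FPKM in laminin-negative cells, a call that ended when no variance was shared between genes.

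For ACTH, the accessory protein MRAP carries MC2R to the cell surface. Mrap had 2.45 and 2.47 FPKM in laminin-positive and 15.7 and 20.1 FPKM in laminin-negative libraries, 7.29-fold lower (log2 difference -2.44, SE 0.12, limma adjusted p = 4.24e-08), while Mc2r itself was under 0.3 FPKM in each. Mc4r was the other of 2 tested genes of the melanocortin list, and it too fell, at 0.616 ± 0.0123 in laminin-positive and 1.87 ± 0.313 FPKM in laminin-negative cells. It passed the filter only through the laminin-negative libraries, and its call ended when no variance was shared between genes. In the CRH family none of 6 listed genes passed the filter, and Crh, Crhbp, Ucn and Ucn3 were listed at 0 in every library. Mc3r and the prolactin gene Prl were likewise at 0 in all 4.

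Of 14 tested signalling genes downstream of PRLR and GHR, 2 rose and 5 fell (median log2 difference -0.13), beside 26.6% and 26.3% of all tested rows. The most abundant, the feedback inhibitor gene Socs3, averaged 329 ± 10.5 in laminin-positive and 358 ± 10.2 FPKM in laminin-negative cells and did not pass (limma adjusted p = 0.182). Igf1, a target of growth hormone, averaged 136 ± 12.2 and 149 ± 3.91 FPKM in laminin-positive and laminin-negative cells, without passing either (limma adjusted p = 0.174). Jak2 and Stat5b were not called, with log2 differences of 0.0141 and 0.103 (limma adjusted p = 0.921 and 0.303). Stat5b averaged 20.05 ± 0.111 in laminin-positive and 18.6 ± 0.584 FPKM in laminin-negative cells. Stat5a was less abundant, at 3.21 ± 0.439 in laminin-positive and 5.998 ± 0.312 FPKM in laminin-negative cells. Socs1, Stat5a and Igf1r fell about as far as Ghr, with log2 differences of -0.94, -0.74 and -0.94. Cish, an inhibitor gene that STAT5 induces, rose by 0.68 on that scale. All 4 calls ended when no variance was shared between genes, as did those of Jak1, Tyk2 and Ptpn11. The call of Jak1 ended also without laminin-positive replicate 1 and at equal FPKM sums, and that of Tyk2 without laminin-positive replicate 2, without laminin-negative replicate 1, at equal FPKM sums and with no filter.

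Within the relaxin family, to which INSL3 belongs, 1 of 3 tested genes rose and 1 fell, beside 26.6% and 26.3% of all tested rows. Rxfp1, the relaxin receptor gene and a relative of Rxfp2, was listed at 0 in both laminin-positive libraries and at 2.50 and 2.47 FPKM in the laminin-negative ones. Rln1, a relaxin gene, averaged 1.11 ± 0.133 in laminin-positive and 0.256 ± 0.154 FPKM in laminin-negative cells, a call that ended when no variance was shared between genes. Rxfp1 and Rln1 each passed the filter through 1 population only, which built a difference in, so no p is given for them.

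Of the calmodulin and PCP4 list, 4 of 7 tested genes rose and 0 fell, beside 26.6% and 26.3% of all tested rows. Pcp4l1, the relative of Pcp4, had 28.0 and 24.5 FPKM in laminin-positive and 4.06 and 2.82 FPKM in laminin-negative libraries (7.62-fold, limma adjusted p = 4.98e-08). Among the calmodulin genes Calm2 rose, at 138 ± 6.50 in laminin-positive and 90.02 ± 3.56 FPKM in laminin-negative cells. Calm3 did not pass (limma adjusted p = 0.0740), but did without laminin-negative replicate 1 (0.00129), at equal FPKM sums (0.00952) and under quantile normalization (0.0381); across all settings tried it ran between 0.00129 and 0.441.

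Other peptide hormone receptors were split as well, with 5 of 16 tested genes higher and 8 lower (median log2 difference -0.19). Of all tested rows, 26.6% were higher and 26.3% lower. Oxtr, the oxytocin receptor gene, had 0.703 and 0.533 FPKM in laminin-positive and 25.9 and 23.4 FPKM in laminin-negative libraries (log2 difference -3.99, SE 0.11), close in size to Lhcgr. The related vasopressin receptor gene Avpr1a was 6.84-fold lower, and the natriuretic peptide receptor genes Npr3 and Npr1 were 10.7-fold and 3.89-fold lower. The endothelin receptor gene Ednrb had 18.5 and 21.02 FPKM in laminin-positive and 0.666 and 0.374 FPKM in laminin-negative libraries (log2 difference 3.78, SE 0.13). Ednra was 2.06-fold and the leptin receptor gene Lepr 6.17-fold higher. Amhr2 and Adipor2 were near the threshold (limma adjusted p = 0.0440 and 0.0414), and so was Epor. The calls of Amhr2 and Adipor2 ended without laminin-positive replicate 1 and without laminin-negative replicate 1. That of Amhr2 ended also without laminin-negative replicate 2, that of Adipor2 without laminin-positive replicate 2, and that of Epor without either laminin-positive library. Of 14 alternatives, 8 ended the call of Amhr2 and 7 that of Adipor2, and of the 12 in which Epor could be tested 4 ended its call. Agtr2, Oxtr, Ednrb, Lepr and Epor passed the filter through 1 population only, which built a difference in, so no p is given for them.

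Among pituitary hormones and gonadotropin receptors, 1 of 8 listed genes passed the filter. Lhb, the LH beta chain gene, had 1.16 and 1.10 FPKM in laminin-positive libraries and was listed at 0 in both laminin-negative ones. It passed the filter only through the laminin-positive libraries, which built a difference in, so no p is given. Its exons share 138 of 678 bases with Ruvbl2 on the opposite strand, and without the strand setting these reads cannot be told apart. Steroid output genes, the end point of LH and ACTH action, fell in 10 of 10 tested cases (median log2 difference -2.32), a direction known for several of them when the list was chosen. Of all tested rows, 26.3% fell. The list includes the 5 Leydig cell markers given above, so it is not a separate result for them. Scarb1, which takes up lipoprotein cholesterol, and the ferredoxin gene Fdx1 were 5.21-fold and 4.98-fold lower. The adrenal enzyme genes Cyp21a1, Cyp11b1 and Cyp11b2 were under 1 FPKM in every library, with Cyp11b2 at 0 in all 4.

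**Figure D5:**
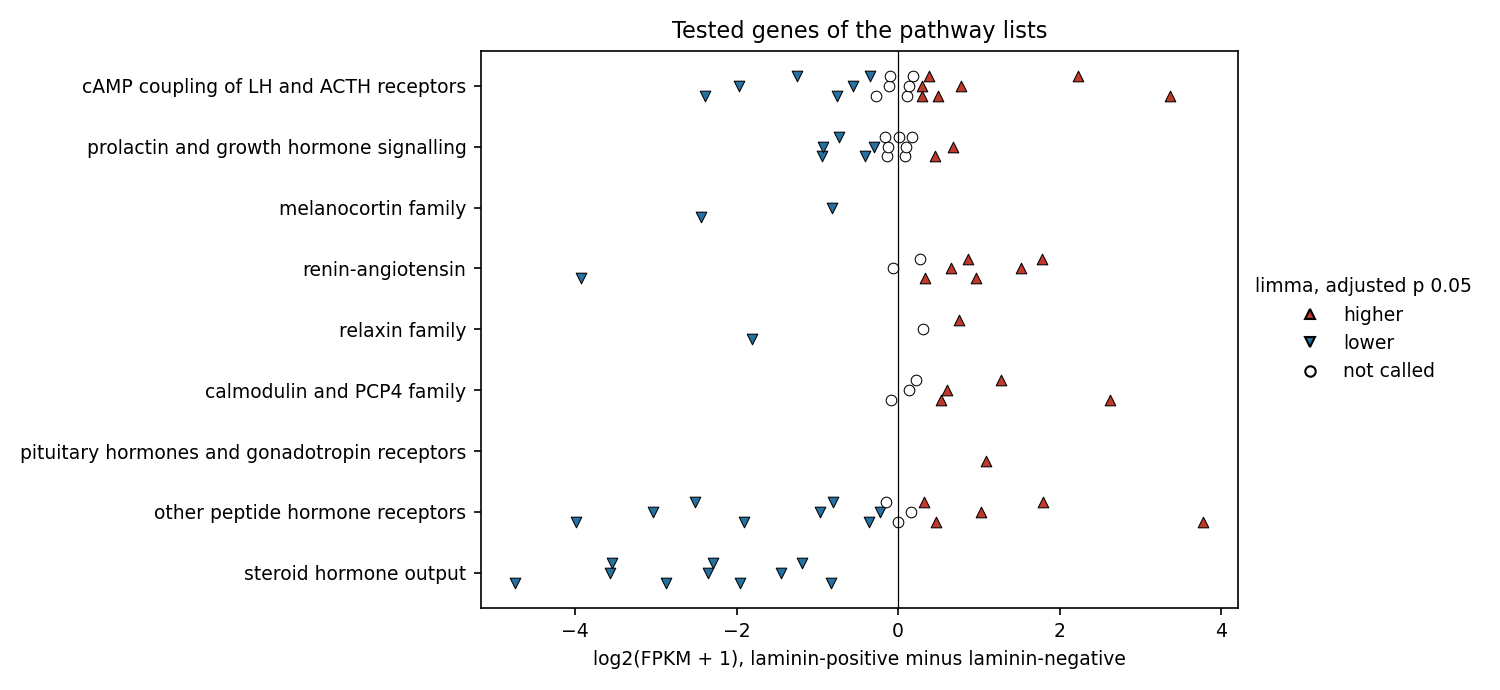
Log2 difference, laminin-positive minus laminin-negative, of each tested gene of the pathway lists (triangles: adjusted p under 0.05 in limma, pointing up for higher and down for lower; open circles: not called). The CRH family had no tested gene; the steroid output list lies wholly left of 0, while most angiotensin genes lie right of it, with Agtr2 at -3.93.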

How the data were processed

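RNA sequencing was done on 4 libraries, prepared from total RNA with a strand-marking NEBNext kit per the labels' protocols. Gene levels were deposited as FPKM per locus, per the file headers. TopHat2 2.1.1 and Cufflinks 2.2.1 appear in the submitters' processing notes with no role. The build, the annotation, the use of strand and any scaling of libraries are not stated there or in the headers. By symbol, 21070 rows matched a RefSeq GRCm38.p6 gene and 99.6% of these overlapped it, so GRCm38 coordinates are given. FPKM keeps no read count. A search of low values for steps of single fragments put at best 30.2% to 34.0% of them within 0.1 of a whole number, where 20% would be there with no step, so depth is unknown and no counting intervals are given.

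Rows with at least 1 FPKM in at least 2 libraries (12348) were compared as log2(FPKM + 1), which understates the change of low genes, with limma 3.58.1 in R 4.3.3 (empirical Bayes, intensity trend, two-sided, Benjamini-Hochberg, threshold 0.05, no replicate block). The fit had 2 residual degrees of freedom and borrowed a median of 8.21. It was checked on simulated data. Folds are ratios of mean FPKM. Lists held 168 genes, of which 166 were in the table, 1 by an older symbol. By rule, list genes named in the text were among the 4 most abundant of a population, at 0 in every library, past a log2 difference of 1, or had a call that an alternative changed. Cyp21a1, Cyp11b1, Mas1, Agtr1b, Jak2 and Stat5b were named after their values were seen. Some list genes that enter the counts are not reported here by name. Members and lists were chosen with earlier results of these data known. Other settings tried were the pseudocount, the filter, the scaling, the sharing of variance, a replicate block and leaving out each library.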

Additional observations from a re-analysis of the deposited data

How the results depend on the processing

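All 7 tested members kept their direction and their call under the 14 alternatives in which they could be tested. Crhr1 had 12 of these, because it fell below the filter without either laminin-negative library, which left 6 members called lower there. Leaving out a library puts 1 sample against 2 and assumes that the lone sample varies like the others. When no variance was shared between genes, 1346 rows were higher and 1211 lower over all genes, against 3288 and 3245, and 13 genes of the pathway lists were higher, against 26. These are fewer since that test rests on 2 residual degrees of freedom. No named gene changed sign together with a call. A replicate block gave 3376 higher and 3343 lower rows over all genes and 7 members lower, and it ended no call of a named gene. Deviations of same-numbered libraries correlated at 0.00809 over the tested rows, and no label says that a number marks shared animals, so the block shows only a shared number. Unknown depth limits Crhr1, Mc2r, Rxfp2 and Pcp4 most.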
